A study of Mus musculus with 17 samples.

Results

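Plasma cell-free RNA (cfRNA) of mice that had lived in microgravity on the International Space Station (MG) was compared with that of mice kept on the ground (GC). The comparison took the 6 libraries labelled microgravity and the 5 labelled ground control, which are 11 of the 17 libraries of the series, and each library came from 1 mouse. All mice were wild type C57BL/6J animals with a labelled age of 13 weeks. The remaining 6 libraries came from mice flown in a centrifuge at artificial 1-G (AG). They entered the fit to estimate the spread, and their values against GC are given beside some results. AG and MG were compared with the same GC libraries, so those values are not independent. Since the MG mice differed from the GC mice in flight as well as in gravity, the contribution of gravity cannot be told apart from that of launch, landing and housing in orbit in MG against GC.

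Plasma RNA is shed by blood cells, platelets and solid organs, mostly as short fragments, and messages made in a single organ, such as albumin mRNA in the liver, are read as traces of that organ. MicroRNAs are cut from longer host transcripts and pair with target mRNAs through a seed near their 5′ end. Mitochondria transcribe their own genome as long precursors that are cut into mRNAs, tRNAs and rRNAs. In bulk plasma, release from more cells and more RNA per cell cannot be told apart.

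Some microRNAs of the small RNA genes or of the host transcripts described further on are printed here, with the seed, bases 2 to 8, in capitals, since seeds group them. The first 2 are transcribed from neighbouring genes on chromosome X and share their seed. The third is the main product of Mirlet7i on chromosome 10. Mir223 lies within the transcribed gene F630028O10Rik, one of the genes past the unadjusted criterion used here, and Mir21a lies within Vmp1 on chromosome 11. Mature sequences are those of RefSeq on GRCm38.p6. The deposited values are per gene and do not tell the arms of a hairpin apart.

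mmu-miR-222-3p: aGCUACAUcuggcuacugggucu

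mmu-miR-221-3p: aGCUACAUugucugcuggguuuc

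mmu-let-7i-5p: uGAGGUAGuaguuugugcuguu

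mmu-miR-223-3p: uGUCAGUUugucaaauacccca

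mmu-miR-21a-5p: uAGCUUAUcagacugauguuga

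The libraries were shallow. MG libraries held 113746 to 223189 counts, with a median of 116460, and GC libraries 84657 to 195103, with a median of 175527. Tmem38b, Polr2m, Lars2 and Rn18s-rs5 were grouped as ribosomal RNA-like genes. That their reads come from ribosomal RNA was assumed for the grouping and was not tested. Together they held 70.6% to 83.5% of the counts in MG and 76.9% to 83.1% in GC. In all, 4 libraries stood apart. The scaling factors of edgeR's TMM method were 0.577 in MG replicate 6 and 0.525 in GC replicate 4, against 1.16 to 1.92 in the remaining MG and GC libraries. GC replicate 1 had the lowest share of Tmem38b in the 2 groups, 24.7%, and the highest of Rn18s-rs5, 30.9%, and differed from the other GC libraries by a chi-square per degree of freedom of 60.4 to 176, against 5.46 to 30.1 between those. MG replicate 4 had the most mapped reads, as implied by the RPKM values, with 1.19% of them counted in genes. Levels are given as TMM-scaled CPM, the counts of a gene set against a common library total, with the SD over 6 MG or 5 GC mice.

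Of 272 genes with enough reads to be tested, none passed an adjusted p of 0.05 between MG and GC by edgeR's quasi-likelihood test, where the smallest adjusted p was 0.604, and none did by DESeq2, edgeR's exact test or limma, by which 15, 12 and 11 genes had an unadjusted p under 0.05. The study called genes at a fold change above 1.5 with p under 0.05 before adjustment. By this criterion 12 genes or 4.41% of those tested were called, 10 higher in MG (3.68%) and 2 lower (0.735%). No other gene had an unadjusted p under 0.05, and all 12 failed the correction for multiple testing. With no difference between the groups, a share of about 0.05 of the genes would fall under that p. The log2 fold changes of all 272 genes had a median of -0.00 and ran from -2.88 to 4.27. The median standard error was 0.52, and in 18 genes the 95% interval lay within 1 log2 unit of 0 on both sides, so that for most genes a change of 1 log2 unit in some direction lay within the interval.

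**Figure D1:**
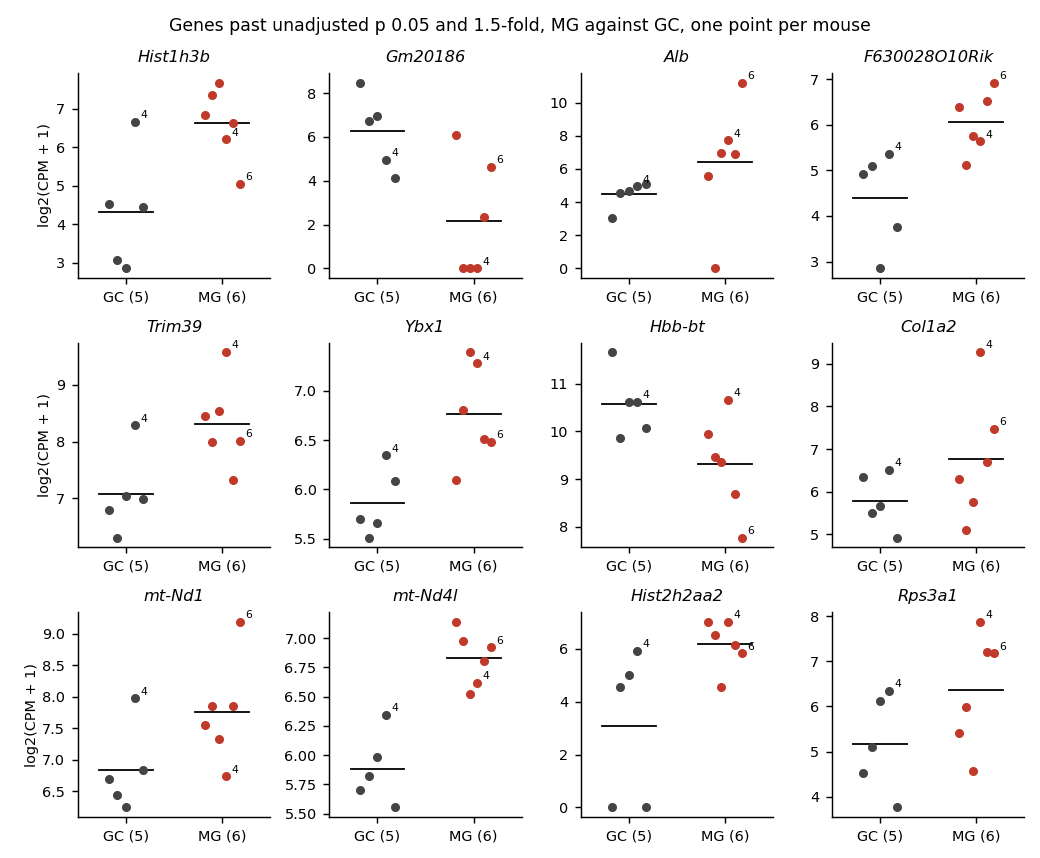
Levels of the 12 genes past the criterion, as log2(CPM + 1) on the vertical axis, with 1 point per mouse for GC (5 mice) and MG (6 mice), a line at the group mean, and MG replicates 4 and 6 and GC replicate 4 numbered. The groups overlap in 11 of the 12 panels, and in the panel of mt-Nd4l all MG mice lie above all GC mice.

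The smallest p belonged to Hist1h3b, a replication-dependent histone H3 gene at chr13:23752267-23752886 on the plus strand of GRCm38, whose mRNA is made while cells copy their DNA. The 5 GC libraries held 3, 2, 1, 10 and 5 reads, and the MG libraries 4 to 34 with a median of 23. The level was 114 ± 62.3 CPM in MG and 31.3 ± 39.2 CPM in GC. GC replicate 4 lay among the MG mice at 100 CPM and MG replicate 6 among the GC mice at 32.1 CPM. The log2 fold change was 2.04 ± 0.63 (SE, unadjusted p = 0.00354), and the gene stayed past the criterion in 22 of 22 alternative settings. Without GC replicate 4 it was 2.99 with an adjusted p of 0.0158 by edgeR's quasi-likelihood test, though that library was the GC mouse among the MG mice. By limma on log2(RPKM + 1), a scale that understates changes of low genes, it was 1.49. That setting also differs in scaling and test, and the part of each was not tested. Against the same controls, AG stood at 2.94.

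Among 70 listed replication-dependent histone genes, 6 were tested, with a median log2 fold change of 0.28. Of the 6, 2 were called, both higher in MG, beside 10 called higher of all 272 tested genes (3.68%). The second, Hist2h2aa2, a histone H2A gene with a near-identical neighbour Hist2h2aa1, had 0, 6, 5, 6 and 0 reads in GC and 3 to 25 in MG, a log2 fold change of 1.99 ± 0.91 (SE, unadjusted p = 0.0392). It was not called without GC replicate 1, 2 or 5 or MG replicate 1, 2 or 4, with values of 1.61 to 2.02. Its partner stood at -0.01 ± 0.92. In 4 of 5 GC libraries and 1 of 6 MG libraries one copy of the pair held all of the reads and the other was at 0, so the copies are uncertain as separate genes. Summed, the pair had 6 to 33 reads in GC and 7 to 43 in MG, or 93.6 ± 68.6 CPM against 154 ± 56.3 CPM. The most abundant tested histone, Hist1h2bc, stood at -0.11 ± 0.55.

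The liver gene Alb had the largest log2 fold change of the 272 tested genes. Alb, which encodes serum albumin (chr5:90460897-90476602, plus strand), had 1, 6, 4, 3 and 8 reads in GC and 9, 0, 16, 26, 29 and 294 in MG replicates 1 to 6. Its level was 476 ± 925 CPM in MG against 23.6 ± 10.09 CPM in GC, a log2 fold change of 4.27 ± 1.46 (SE, unadjusted p = 0.00778). Without MG replicate 6, the log2 fold change was 1.999 and no longer past the criterion, and by limma on log2(RPKM + 1) it was 1.19 and past it. DESeq2 gave no p for Alb. AG stood at 3.43, and there too 1 mouse held most of the reads, 116 of them.

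All 24 listed liver mRNAs had reads in MG and 20 had reads in GC, but only Alb was tested. Each of the 24 had more reads over the 6 MG libraries than over the 5 GC libraries, and with MG replicate 6 left out, 16 had more, 5 fewer and 3 the same number. They included Apob, a lipoprotein component (71 reads against 13), the iron carrier transferrin Trf (69 against 17), Serpina3k, a protease inhibitor (42 against 0), and Cyp2e1, a cytochrome P450 (39 against 10). Without MG replicate 6 the MG reads of these genes were 26, 27, 21 and 11. The 23 listed mRNAs other than Alb summed to 17 to 32 reads in each GC library. In MG they summed to 18, 8, 20, 53, 104 and 362 reads in replicates 1 to 6, so that 3 mice lay above every GC mouse and 1 lay below. MG replicate 6 held all 24 of the mRNAs, MG replicates 4 and 5 held 19 each, and the GC libraries held 7 to 11.

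The liver microRNA gene Mir122, which is counted separately from those mRNAs, showed the same mice at the top. Its reads, recovered from the RPKM values as described for the small RNAs further on, numbered 34, 86, 36, 32 and 10 in GC and 65, 23, 37, 60, 256 and 637 in MG. MG replicates 5 and 6 were above every GC library, and the other 4 MG libraries lay within the GC range of reads. In recovered CPM, MG replicates 1 and 4 also lay above every GC library, while in RPKM they were at 318 and 92.8, within the GC range of 47.4 to 340. The log2 fold change over recovered reads was 2.41 ± 0.88 (SE, edgeR, unadjusted p = 0.012), and by limma on log2(RPKM + 1) it was 1.14 with an unadjusted p of 0.163.

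**Figure D2:**
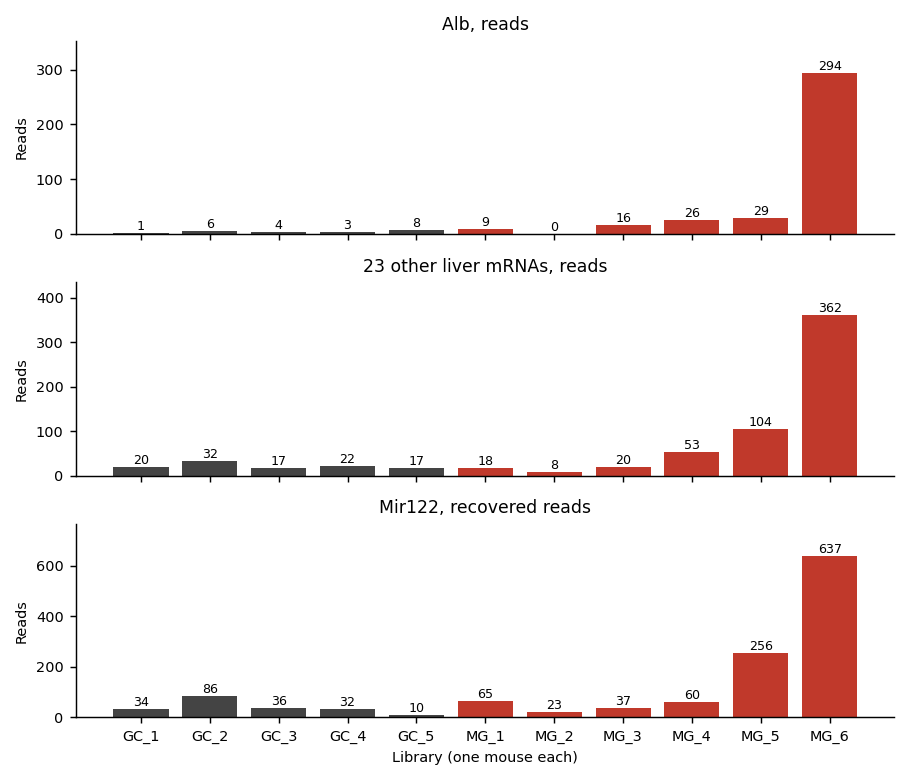
Reads of Alb, of the 23 other listed liver mRNAs summed, and of Mir122 (recovered from RPKM), on linear vertical axes from 0, for each GC (grey) and MG (red) library. In each panel MG replicate 6 is the highest bar, at 294, 362 and 637 reads, and MG replicate 5 is the second highest.

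When all 6270 genes with at least 5 reads were tested, 10 genes (0.159%) passed an adjusted p of 0.05, all but Gm20186 higher in MG. At the criterion 614 of the 6270 (9.79%) were higher and 240 (3.83%) lower. The 10 included Alb and 4 more genes known from liver, Serpina1b, Serpina3k, Mug1 and Mat1a, of which Serpina3k is on the liver list. These 4 had no read in any GC library, so they passed the filter only through the flown mice in which they were read, and a call in that direction was favoured. Serpina1b, an antitrypsin gene, had 11, 0, 4, 3, 4 and 40 reads in MG, and Mug1, a murinoglobulin gene, had 0, 0, 0, 2, 3 and 32. The remaining genes higher in MG were read almost entirely in MG replicate 4. They were Gm14744 (94 reads), 5430402E10Rik (65), Mup4 (56, with 1 more in MG replicate 3) and Obp1b (44), each at 0 in all GC and AG libraries, and edgeR nevertheless gave Gm14744 an adjusted p of 1.93e-05.

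A search for genes with at least 10 reads in 1 library and none in the other 16, made after those values were seen, returned 6 genes in MG replicate 4 and 1 in MG replicate 6. Beside Gm14744, 5430402E10Rik and Obp1b, which lie near each other on chromosome X between 77864758 and 78192292, the 6 were Obp2a with 17 reads, Bpifb1 with 14 and Scgb3a2 with 11. Obp1b and Obp2a encode odorant-binding proteins of nasal secretions, and Bpifb1 and Scgb3a2 encode secreted proteins of the airway lining. The gene in MG replicate 6 was the antitrypsin gene Serpina1d, with 12 reads. No GC or AG library and no other MG library held such a gene. MG replicate 4 was also the library with the most genes detected, 4907, and the lowest counted share of mapped reads, and the part of either in these reads was not tested.

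Mitochondrial mRNAs had log2 fold changes above 0 for 13 of 13 genes. The median log2 fold change was 0.43, beside -0.00 over all 272 genes. Of the 13, 2 were called, both higher, beside 10 called higher of the 272 (3.68%). With 1 library left out in turn, 11 to 13 of the 13 were above 0, with 11 without MG replicate 6, where mt-Nd2 was at -0.41 and mt-Atp8 at -0.10. With other scalings of the counts, 13 of 13 were above 0 with total counts and 12 with upper quartile scaling. By limma on log2(RPKM + 1), which differs in the unit and the test as well as the scaling, 7 were above 0, and the median was 0.02 beside -0.22 over all genes. The 13 mRNAs held 0.266% to 1.21% of the counts in MG (median 0.672%) and 0.255% to 0.578% in GC (median 0.502%). By this share MG replicates 1, 2 and 5 lay above every GC mouse, and the other 3 lay within the GC range. Summed as TMM-scaled CPM, the 13 reached 3270 to 4986 in GC and 7162, 5383, 3997, 2524, 5517 and 6941 in MG replicates 1 to 6, so that on this scale MG replicate 6 also lay above every GC mouse and MG replicate 4 below every GC mouse. In AG the median against GC was -0.24.

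**Figure D3:**
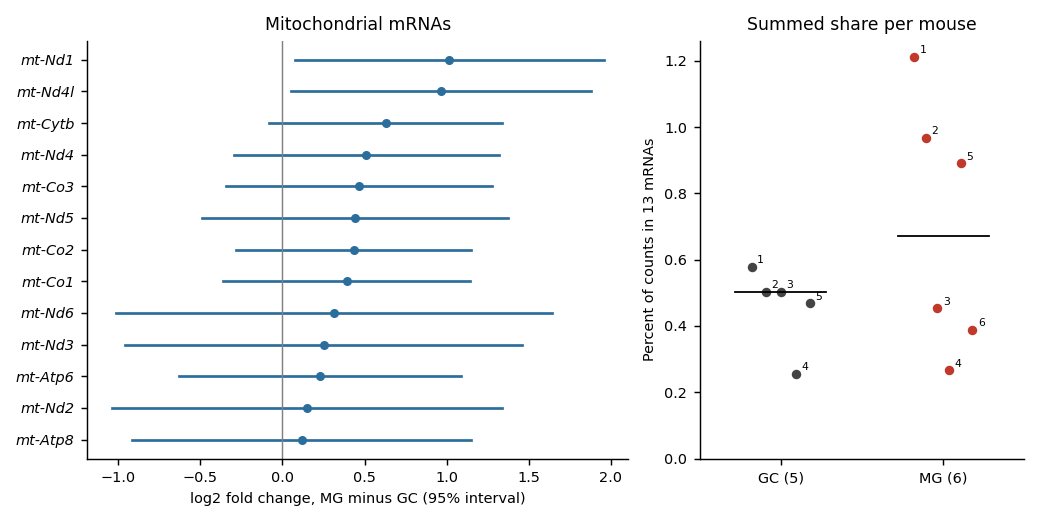
Left, log2 fold change (MG minus GC) of each mitochondrial mRNA with its 95% interval from edgeR, and right, the percent of counts in the 13 mRNAs for each numbered mouse, with lines at the medians. All 13 points lie right of 0 (7 of 13 by limma on RPKM) and 11 of the 13 intervals include 0, while the summed shares split the MG mice into 3 above the GC range and 3 inside it.

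Both called members encode subunits of complex I, the NADH dehydrogenase. mt-Nd4l (chrM:9877-10173) was the only one of the 272 genes for which all MG libraries lay above all GC libraries (0.368% of the genes), and none lay wholly below. It had 7, 15, 10, 8 and 11 reads in GC and 12 to 27 in MG, or 59.0 ± 13.3 CPM against 114 ± 18.2 CPM, a log2 fold change of 0.97 ± 0.44 (SE, unadjusted p = 0.039). Its 3′ end overlaps mt-Nd4, and it lost the call in 13 of 22 alternative settings while the log2 fold change stayed between 0.54 and 1.15. Among these were the settings without GC replicate 1, 2, 3 or 5 or MG replicate 1, 2, 5 or 6, with values of 0.88 to 0.99. mt-Nd1 (chrM:2751-3707) had 14, 23, 12, 25 and 27 reads in GC and 13 to 73 in MG. Its log2 fold change was 1.02 ± 0.45 (SE, unadjusted p = 0.035), and without MG replicate 6, the highest mouse at 586 CPM, it was 0.58 and not called. It was also not called without GC replicate 1, 2, 3 or 5, with values up to 0.98, nor without the AG libraries (0.98), with all genes of at least 5 reads (1.01), with the replicate block (0.76) or by limma on log2(RPKM + 1) (0.52).

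The other complex I members ranged from 0.15 (mt-Nd2) to 0.51 (mt-Nd4), with mt-Nd3 at 0.25, mt-Nd5 at 0.44 and mt-Nd6 at 0.31. mt-Cytb of complex III stood at 0.63 ± 0.34, the next in size after the 2 called genes. The cytochrome oxidase genes of complex IV lay close together, mt-Co1 at 0.39, mt-Co2 at 0.43 and mt-Co3 at 0.47, and the ATP synthase genes lay below them, mt-Atp6 at 0.23 and mt-Atp8 at 0.12. None of these 11 was called. Nuclear genes for oxidative phosphorylation could not be set beside them, as none of 82 listed passed the filter. They summed to 59 to 94 reads in each MG library and 45 to 147 in each GC library. The most read, the cytochrome oxidase subunit gene Cox5a, had 34 reads over MG and 40 over GC.

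Many small RNA genes were listed with a count of 0 in every library and a positive RPKM, and why the count omits them is not given in the sources used here. These 579 genes included microRNA, Y RNA, 5S rRNA and mitochondrial tRNA and rRNA genes. Multiplying RPKM by gene length and mapped reads gave back whole numbers, within 0.05, for 99.0% of the values. Of 178 such genes tested by limma on log2(RPKM + 1), 3 passed the criterion (1.69%), the same number had an unadjusted p under 0.05, and none passed an adjusted p of 0.05. They were Gm24203, higher in MG with 1 to 4 recovered reads against 0 or 1 in GC, and the U3 RNA gene Rnu3a_1 and the 5S gene n-R5s155, at -1.55 and -1.27. Of 98 tested by edgeR on the recovered reads, an alternative chosen after the data were seen, 7 passed the criterion (7.14%), 6 of them higher in MG (6.12%) and 1 lower (1.02%), and none passed an adjusted p of 0.05, with 0.487 the smallest. In that fit 20 of 360 genes had an unadjusted p under 0.05. Levels of these genes are given as recovered CPM, which is scaled by the totals of the counts, to which these reads do not belong.

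Of the 6, 3 were mitochondrial tRNA genes, the tRNAs for methionine (mt-Tm), proline (mt-Tp) and valine (mt-Tv). In recovered CPM, all MG libraries lay above all GC libraries in these 3, and in no other of the 98 genes (3.06%). In RPKM the groups overlapped in all 3. MG replicate 4 was at 41.4, 9.14 and 87.3 there, and GC replicate 1 at 99.9, 28.1 and 354. mt-Tm, at chrM:3845-3913, had 11, 26, 7, 9 and 22 recovered reads in GC and 14 to 70 in MG, a log2 fold change of 1.48 ± 0.49 (SE, unadjusted p = 0.00644). mt-Tp (chrM:15356-15422, minus strand) had 3, 9, 4, 3 and 3 in GC and 6 to 18 in MG, at 1.32 ± 0.46. mt-Tv (chrM:1025-1093) had 39, 65, 32, 15 and 84 in GC and 51 to 133 in MG, at 1.11 ± 0.47.

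All 11 mitochondrial tRNA genes tested on recovered reads were above 0, with a median of 0.73 beside 0.12 over the 98 genes. These genes were grouped after their values were seen. With scaling on the small RNA genes alone the 11 were again above 0, with a median of 0.51, and by limma on log2(RPKM + 1) 13 of 15 were above 0 and none was called. The mitochondrial rRNA genes, far more abundant, stood at 0.42 ± 0.46 (mt-Rnr1) and 0.38 ± 0.41 (mt-Rnr2), neither called. Both lay below the tRNA median but within the tRNA range of 0.34 to 1.48, and the difference was not tested. By limma the rRNA genes stood at 0.07 and -0.00. The tRNA genes together reached 9051 to 20123 recovered CPM in MG and 5408 to 10553 in GC, so the ranges overlapped.

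**Figure D4:**
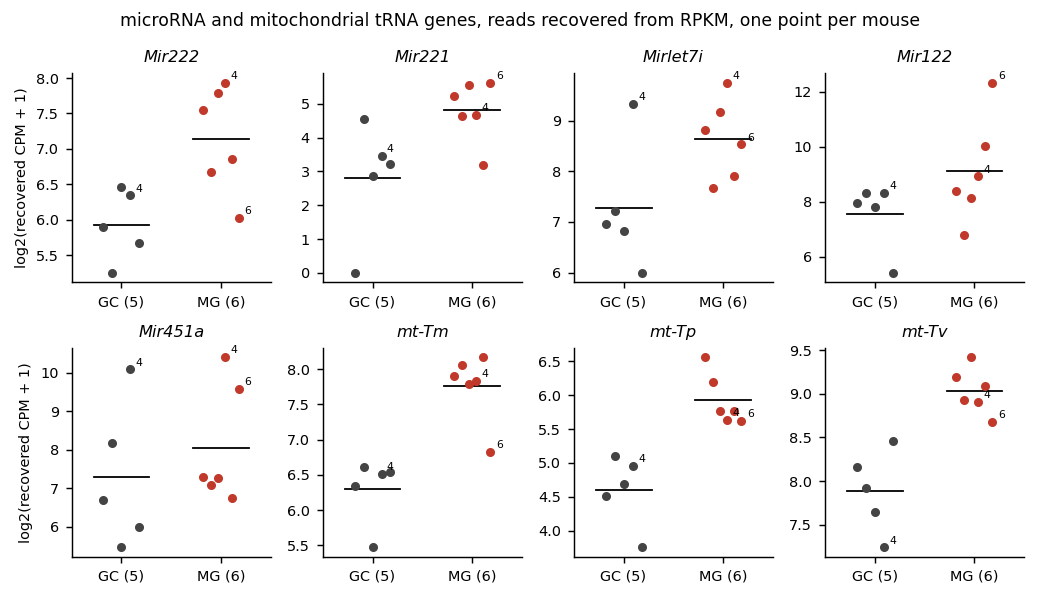
Levels of 5 microRNA and 3 mitochondrial tRNA genes as log2(recovered CPM + 1), with 1 point per GC or MG mouse, a line at the group mean, and MG replicates 4 and 6 and GC replicate 4 numbered. MG lies wholly above GC for mt-Tm, mt-Tp and mt-Tv and overlaps it for the 5 microRNA genes.

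The microRNA genes as a whole did not move one way. By limma 15 of 29 tested were above 0, with a median of 0.02, and on recovered reads 10 of 14 were. In the latter 2 were called higher, Mir222 and Mir122, beside 6.12% called higher of the 98 genes. Mir222 (chrX:19146893-19146971, minus strand), known from proliferating and vascular cells, had 8, 10, 14, 8 and 12 recovered reads in GC and 36, 21, 29, 30, 28 and 8 in MG. All MG mice but replicate 6 had more reads than any GC mouse. In RPKM, MG replicates 4 and 6 lay within the GC range, at 38.8 and 25.7 against 18.6 to 63.4. The log2 fold change was 1.32 ± 0.42 (SE, edgeR, unadjusted p = 0.00452), and by limma on log2(RPKM + 1) it was 0.82 with an unadjusted p of 0.137. Mir221, which shares the seed printed above, had 0 to 6 reads in GC and 2 to 7 in MG, too few for the count test, and stood at 1.53 by limma with an unadjusted p of 0.061.

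Mirlet7i had 17, 40, 18, 64 and 15 recovered reads in GC and 42 to 106 in MG, a log2 fold change of 1.07 ± 0.56 (SE, unadjusted p = 0.069). With scaling on the small RNA genes alone the value was again 1.07 and the unadjusted p was 0.044. GC replicate 4 was the GC mouse within the MG range. The other let-7 genes tested, Mirlet7b, Mirlet7c-2 and Mirlet7a-1, stood at 0.49, 0.16 and 0.19, none called. The red cell microRNA gene Mir451a had 7 to 108 reads in GC and 20 to 167 in MG, at 0.50 ± 0.81.

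Transcripts that carry microRNAs had values above 0 for 4 of 4 tested genes, with a median log2 fold change of 0.88. Of these 1 was called, higher, beside 3.68% called higher over all tested genes. By limma on log2(RPKM + 1) 3 of 4 were above 0, with a median of 0.37. The called gene, F630028O10Rik (chrX:96239926-96243636, plus strand), contains Mir223, the microRNA of neutrophils and platelets. It had 4, 9, 1, 4 and 3 reads in GC and 6 to 22 in MG, at 1.57 ± 0.56 (SE, unadjusted p = 0.00986). By limma on log2(RPKM + 1) it stood at 0.43 and was not called. Reads of the microRNA and of its host cannot be told apart in the gene count. Vmp1, the gene that contains Mir21a and otherwise encodes a membrane protein of autophagy, had 61 to 186 reads in GC and 130 to 333 in MG, at 0.92 ± 0.49. Mir17hg, the host of a cluster linked to cell proliferation, stood at 0.84 ± 0.49, and Mcm7, a replication factor that hosts another cluster, at 0.42 ± 0.61. Against the same controls the AG median of the 4 genes was 2.08.

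Red cell mRNAs lay on both sides of 0 by edgeR, and by limma on log2(RPKM + 1) none of the tested members of the 5 red cell lists was above 0, where the median of all genes was -0.22. Of 4 globins, 1 was above 0 and 1 was called lower, beside 0.735% called lower over all tested genes. Hbb-bt, an adult beta globin (chr7:103812524-103813996, minus strand), had 444, 252, 252, 157 and 257 reads in GC and 27 to 200 in MG, or 1678 ± 920 CPM against 766 ± 495 CPM. Its log2 fold change was -1.13 ± 0.50 (SE, unadjusted p = 0.033), or -0.75 without GC replicate 1, where it was not called. It was also not called without MG replicate 2, 3, 5 or 6, with values down to -1.11, nor with total counts (-1.06), and by limma on log2(RPKM + 1) it stood at -1.61 and was called. Its sister gene Hbb-bs stood at -0.06 ± 0.49 and the alpha globins Hba-a1 and Hba-a2 at -0.16 ± 0.45 and 0.11 ± 0.44, and near-identical globin copies can share reads. Of 5 tested genes of heme synthesis and iron handling, 3 were above 0 and none was called, with a median of 0.03 (0 of 5 above 0 with upper quartile scaling or by limma). The ferritin chains Fth1 and Ftl1 stood at 0.09 ± 0.37 and 0.13 ± 0.36, and Alas2, the first enzyme of heme synthesis in red cells, was the lowest of the 5 at -0.46 ± 0.50. The red cell enzymes Bpgm and Gpx1 stood at 0.17 ± 0.45 and -0.03 ± 0.67, and the membrane proteins Epb41 and Slc4a1 at -0.25 ± 0.44 and -0.73 ± 0.61. The reticulocyte maturation genes Mkrn1, Bnip3l and Ubb were at -0.36, -0.50 and -0.10, and all 5 tested members of that list lay below 0 (4 of 5 with total counts) with a median of -0.34 and none called.

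Platelet mRNAs had values below 0 for 9 of 12 tested members, with a median of -0.23 and none called. By limma on log2(RPKM + 1) all 12 were below 0, with a median of -0.44 beside -0.22 over all genes, and with upper quartile scaling 1 of 12 was above 0, with a median of -0.41. Ppbp, a platelet granule chemokine and the most abundant of them, had 1644 ± 513 CPM in MG and 2212 ± 708 CPM in GC, at -0.43 ± 0.46. Cd9 and Thbs1 stood at -0.19 ± 0.43 and -0.30 ± 0.50. The leukocyte lists were barely covered. Lyz2, a lysozyme gene of myeloid cells, was the only member tested, at 0.09 ± 0.35, and no lymphocyte, endothelial, or brain and retina gene was tested. The most read lymphocyte member was the immunoglobulin gene Ighm (28 reads over MG against 15 over GC), and the most read endothelial member was Egfl7 (36 against 13). Of 15 listed brain and retina genes, 11 were at 0 in every MG and GC library.

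Collagen and matrix mRNAs were above 0 for 4 of 4 tested members, with a median of 0.83. Of these 1 was called, higher, beside 3.68% called higher over all tested genes. By limma on log2(RPKM + 1) 2 of 4 were above 0, with a median of 0.05. The list held 0.218% of the counts in MG replicate 4, against 0.0328% to 0.0642% in the other MG mice and 0.0133% to 0.0744% in GC. Col1a2, a chain of type I collagen of bone and skin (chr6:4504814-4541544, plus strand), had 11, 12, 8, 9 and 7 reads in GC and 15, 7, 7, 76, 25 and 22 in MG. Its log2 fold change was 1.60 ± 0.71 (SE, unadjusted p = 0.035), and 0.62 without MG replicate 4, the library that also held the nasal and airway genes, where it was not called. The call was also lost without GC replicate 2, 3 or 5, with values up to 1.55, with the replicate block (0.78) and by limma on log2(RPKM + 1) (0.13). The partner chain Col1a1, with 59 reads in that library, stood at 0.54 ± 0.64 and fibronectin, Fn1, at 0.27 ± 0.76, and without that library they were at -0.27 and -0.0072. In muscle only Ttn, the giant sarcomere protein titin, was tested, at 0.51 ± 0.64.

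**Figure D5:**
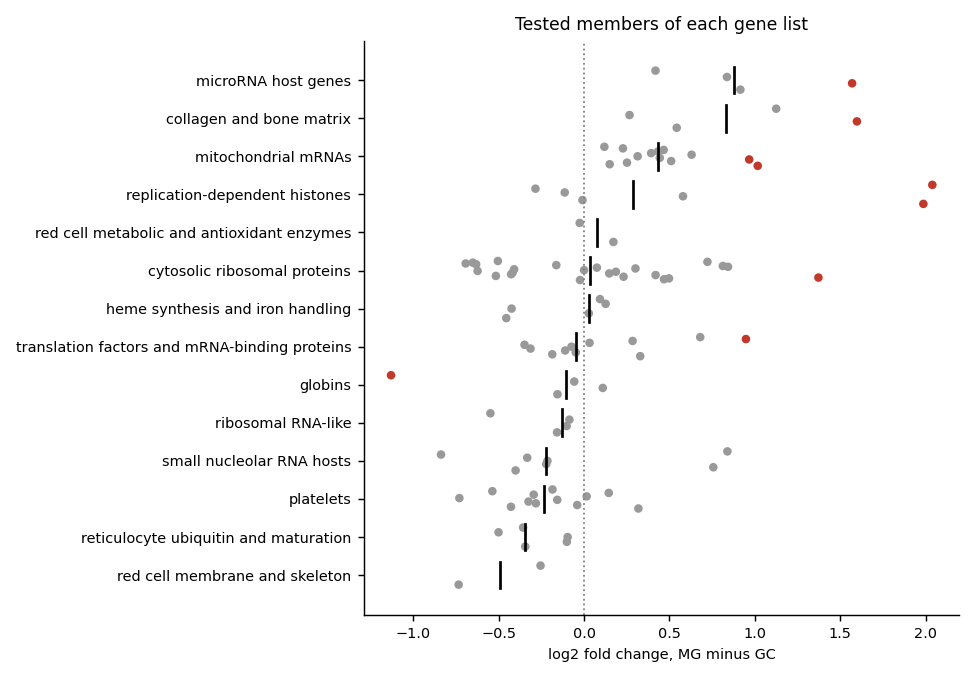
Log2 fold change (MG minus GC) on the horizontal axis for each tested member of the gene lists with at least 2 tested members, with called genes in red, a black bar at the list median and a dotted line at the median of all 272 genes. The microRNA hosts, the collagen genes and the mitochondrial mRNAs lie wholly right of 0, where by limma on RPKM 3 of 4, 2 of 4 and 7 of 13 do, and the lists of red cell, platelet and ribosomal protein genes lie on both sides of it or left of it.

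Genes of protein synthesis lay on both sides of 0. Of 24 tested cytosolic ribosomal protein genes, 13 were above 0, with a median of 0.04. The 1 called was higher in MG, beside 3.68% called higher over all tested genes. Rps3a1 (chr3:86137940-86142702, minus strand), which also contains the small nucleolar RNA gene Snord73a, had 3, 9, 11, 8 and 3 reads in GC and 3 to 36 in MG, at 1.37 ± 0.64 (SE, unadjusted p = 0.0436). It was not called without GC replicate 1, 2 or 5 or MG replicate 4, 5 or 6, with values of 1.01 to 1.29, nor with the replicate block (1.01), with all genes of at least 5 reads (1.25) or by limma on log2(RPKM + 1) (0.62). The more abundant Rpl5 and Rpl13 stood at -0.52 and 0.00. Among translation and mRNA-binding factors 5 of 11 were above 0, with a median of -0.05, and with total counts 10 of 11 were, with a median of 0.21. Ybx1, a cold shock domain protein that binds mRNAs and is found in released vesicles (chr4:119277981-119294604, minus strand), was called. The 5 GC libraries held 7, 12, 8, 8 and 16 reads and the MG libraries 11 to 23, or 58.5 ± 14.8 CPM against 113 ± 39.6 CPM. MG replicate 1 lay within the GC range, and the log2 fold change was 0.95 ± 0.39 (SE, unadjusted p = 0.0238), or 0.86 without GC replicate 2, where it was not called. The call was also lost with upper quartile scaling (0.83), with total counts (1.08), with all genes of at least 5 reads (0.84) and by limma on log2(RPKM + 1), where Ybx1 stood at 0.30. Rack1, a ribosome-bound scaffold protein, stood at 0.68 ± 0.53, and at -0.13 without MG replicate 6. The initiation factor genes Eif4a2 and Eif4g2 stood at -0.31 ± 0.45 and -0.07 ± 0.57.

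The pair of called genes that fit no list were Trim39 and Gm20186. Trim39, a ubiquitin ligase gene (chr17:36258873-36272247, minus strand), had 15, 21, 21, 31 and 30 reads in GC and 32 to 94 in MG, so that the read counts did not overlap, while the CPM did. The level was 359 ± 212 CPM in MG and 151 ± 91.9 CPM in GC, a log2 fold change of 1.27 ± 0.46 (SE, unadjusted p = 0.0111), beside 2.40 for AG against the same controls. By limma on log2(RPKM + 1) Trim39 stood at 0.49 and was not called. Gm20186, a long noncoding RNA gene (chr6:18845910-18848207, minus strand) that overlaps Gm26809 on the other strand, was the gene furthest below 0. It had 49, 28, 20, 3 and 4 reads in GC and 13, 0, 0, 0, 1 and 3 in MG, at -2.88 ± 0.98 (SE, unadjusted p = 0.00769), and at -2.03 without GC replicate 1, where it was not called, and -4.45 without MG replicate 1.

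Tmem38b, Polr2m, Lars2 and Rn18s-rs5, grouped as ribosomal RNA-like and holding most of the counts, stood at -0.09, -0.55, -0.10 and -0.16, and none was called. Snhg1, Gas5 and Snhg5, hosts of small nucleolar RNAs, stood at -0.84 ± 0.62, 0.84 ± 0.65 and -0.22 ± 0.51, and the value of Gas5 rested on MG replicate 6, with 11073 reads, since it was -0.54 without that library. Snhg1 was at 0.10 without GC replicate 4. Among the small RNA genes, Vaultrc5, an RNA of the vault particle, had 361 to 698 recovered reads in GC and 622 to 1459 in MG, at 1.18 ± 0.44 (SE, edgeR, unadjusted p = 0.0138), and by limma on log2(RPKM + 1) it stood at 0.69 and was not called. The Y RNA genes Rny1 and Rny3, which encode components of Ro ribonucleoprotein particles, stood at 0.33 ± 0.44 and 0.12 ± 0.38, and by limma at 0.13 and -0.31. The 1 of these genes called lower in MG on recovered reads, the small nuclear RNA gene Gm23143, ran from 26 to 2884 reads in GC and from 14 to 1162 in MG, at -2.48 ± 1.10, and by limma at -1.69 and not called. The oxidative stress gene Prdx6 stood at 0.12 ± 0.53, and Malat1, a nuclear long noncoding RNA, had 36 reads over MG and 27 over GC.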

How the data were processed

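Plasma RNA was sequenced by the authors with a small RNA library kit, which was chosen because the RNA was degraded, and paired reads were mapped to mm10 and quantified over 49585 genes in CLC Genomics Workbench. The strand setting and the handling of reads with several matches are not given in the sources used here, so copies and overlapping genes can share reads. The deposited count, a whole number per gene, was taken as reads per gene without normalization. It is 0 for 579 genes with an RPKM above 0, so CPM and shares rest on the reads it includes. The RPKM deposited by the authors is scaled by gene length and mapped reads, and the TPM deposited by the authors was used for no result. Groups were taken from the sample labels, with 1 mouse per library.

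Counts were tested in R 4.3.3 with edgeR 4.0.16 (TMM, filterByExpr, quasi-likelihood F-test, Benjamini-Hochberg adjustment), with all 17 libraries in one fit and the contrast MG minus GC. The study's rule for calling genes, a fold change above 1.5 with p under 0.05 before adjustment, was applied to that fit. Alternatives used DESeq2 1.42.0, limma 3.58.1 on log2(RPKM + 1), other scalings and filters, a replicate block and each library left out in turn. Genes with a count of 0 and an RPKM above 0 were tested by limma when above 0 in at least 9 libraries, and, for the 548 of 579 with a GENCODE M21 length, on reads recovered from RPKM. Scripts were tested on simulated data. Intervals are at 95%. Positions are on GRCm38, the assembly also called mm10.

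Members and gene lists were chosen with earlier results of these data known. Named are the genes past the criterion, the 13 mitochondrial mRNAs, in each list the 3 tested members with the highest mean CPM or, where none was tested, the member with most reads (except 2 genes that are not reported here), genes above 5% of any library, and genes with an adjusted p under 0.05 in an alternative. Other liver members, the genes read in 1 library and the small RNA genes were named after their values were seen. No 2 MG or GC libraries agreed within sampling noise (lowest chi-square per degree of freedom 5.46 over 55 pairs). The counts of 84657 to 223189 per MG or GC library and the spread between mice limit precision, and no batch was stated. P-values of the main fit rest on a spread between mice estimated over all 17 libraries, AG included, and shared in part across genes.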

Additional observations from a re-analysis of the deposited data

Results flagged for a closer look

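A highest or lowest value far from the rest of its group was found 19 times in 124 groups of 5 or 6 mice. At 1 in 20, about 6.2 would arise by chance if the groups were independent and the values normally distributed. Some groups share reads, such as Alb and the liver list, and every value found was a highest one. An excess over chance can therefore not be read from these numbers. Values of single genes are in CPM, and those of small RNA genes in recovered CPM.

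MG replicate 6 held 5 of them, all highest in MG: Alb at 2359 (next 211), mt-Nd1 at 586 (next 231), Mir122 at 5111 (next 1049), the liver list at 0.294% of counts (next 0.088%) and the total count at 223189 (next 151123). MG replicate 4 held 4, with Trim39 at 763 (next 372), Col1a2 at 617 (next 177), the collagen list at 0.218% (next 0.0642%) and the nuclear long noncoding RNAs at 0.0154% (next 0.00596%). MG replicate 1 was highest for Gm20186 at 67.5 (next 24.1) and for Gm23143 at 6035 (next 979).

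GC replicate 4 was the highest GC mouse for Hist1h3b at 100.3 (next 21.9), Trim39 at 311 (next 130), mt-Nd1 at 251 (next 113), Mirlet7i at 642 (next 148), Mir451a at 1084 (next 289) and Gm23143 at 28934 (next 7969). GC replicate 1 was highest for Hbb-bt at 3240 (next 1575) and for Rny1 at 266451 (next 97322). The causes were not tested.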

How the results depend on the processing

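With any MG or GC library left out in turn, 4 to 18 genes were higher and 1 to 5 lower at the criterion, beside 10 and 2 with all libraries, and 0 or 1 passed an adjusted p of 0.05, the 1 being Hist1h3b without GC replicate 4, where 18 genes were higher. The 4 higher genes were without GC replicate 2, 5 were without GC replicate 5, and 6 were without GC replicate 1 or MG replicate 6. The 5 lower genes were without MG replicate 6, 4 without MG replicate 4, and 1 without GC replicate 1 or MG replicate 3. Among genes with an RPKM and no count, 2 to 5 passed beside 3, with 5 without GC replicate 3 or MG replicate 6. The median of the mitochondrial mRNAs was 0.31 to 0.56. Without both MG replicate 6 and GC replicate 4, a setting chosen after seeing the data, 1 gene passed an adjusted p of 0.05.

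Total counts gave 1 lower gene, DESeq2 gave 4, and limma on log2(RPKM + 1) gave 3 higher and 4 lower, with 7 of the 12 genes no longer called. DESeq2 gave no p for Alb and Gas5, which have no verdict there. At p under 0.01 there were 3 higher and 1 lower. With all genes of at least 5 reads, 614 were higher (9.79%), 240 lower (3.83%) and 10 passed an adjusted p of 0.05, and the median of all genes was 0.22. That median was -0.12 with upper quartile scaling, 0.10 with total counts and -0.22 by limma. For genes with an RPKM and no count, 7 passed with no filter, 7 on recovered reads and 7 on recovered reads with their own scaling, all chosen after seeing the data. The signs of some genes changed with the setting, none of them called in the setting of the report. By limma on log2(RPKM + 1), the opposite sign was found for mt-Nd2 (-0.27), mt-Nd3 (-0.13), mt-Nd6 (-0.38), mt-Co1 (-0.039), mt-Atp6 (-0.16), mt-Atp8 (-0.22), Hba-a2 (-0.41), Fth1 (-0.26), Ftl1 (-0.22), Bpgm (-0.10), Lyz2 (-0.24), Col1a1 (-0.10), Fn1 (-0.020), Rpl13 (-0.056), Hist2h2aa1 (0.029), Gas5 (-0.074), Mcm7 (-0.16) and Prdx6 (-0.10). With total counts it was found for Gpx1 (0.030), Ubb (0.26), Eif4a2 (0.035), Eif4g2 (0.16), Hist2h2aa1 (0.10), Snhg5 (0.078) and Tmem38b (0.058), and with upper quartile scaling for mt-Atp8 (-0.12), Fth1 (-0.069), Ftl1 (-0.028), Lyz2 (-0.026) and Rpl13 (-0.037). With all genes of at least 5 reads it was found for mt-Atp8 (-0.054), Hba-a2 (-0.0048), Fth1 (-0.040), Lyz2 (-0.013) and Prdx6 (-0.022), without the most abundant genes for Gpx1 (0.014) and Hist2h2aa1 (0.013), and for Rpl13 by the exact test (-0.0024) and without AG (-0.062). Without both MG replicate 6 and GC replicate 4 it was found for mt-Nd3 (-0.0064), mt-Atp8 (-0.28), Ftl1 (-0.0055), Epb41 (0.019), Gpx1 (0.16), Ubb (0.61), Eif4a2 (0.063), Eif4g2 (0.18), Snhg5 (0.039) and Tmem38b (0.12). Recovered reads gave mt-Rnr2 0.38, or 0.12 with their own scaling, and Rny3 0.12, where limma on RPKM gave values below 0. With 1 library left out in turn, Bpgm ran from -0.094 to 0.40, Col1a1 from -0.27 to 0.82, Eif4a2 from -0.59 to 0.34, Eif4g2 from -0.50 to 0.60, Fn1 from -0.056 to 0.95, Fth1 from -0.075 to 0.18, Gas5 from -0.54 to 1.48, Gpx1 from -0.23 to 0.26, Hba-a1 from -0.44 to 0.088, Hba-a2 from -0.23 to 0.44, Hbb-bs from -0.47 to 0.43, Hist1h2bc from -0.33 to 0.018, Hist2h2aa1 from -0.35 to 0.61, Lars2 from -0.18 to 0.0055, Lyz2 from -0.060 to 0.25, Mcm7 from -0.15 to 0.63, Prdx6 from -0.084 to 0.35, Rack1 from -0.13 to 1.201, Rn18s-rs5 from -0.47 to 0.063, Rpl13 from -0.41 to 0.71, Rpl5 from -0.88 to 0.11, Snhg1 from -1.59 to 0.10, Snhg5 from -0.57 to 0.39, Tmem38b from -0.50 to 0.53, Ubb from -0.33 to 0.49, mt-Atp8 from -0.10 to 0.43, mt-Nd2 from -0.41 to 0.60 and mt-Nd6 from -0.16 to 0.63. By limma on RPKM, with 1 library left out, Mir451a ran from -0.14 to 0.72, Rny1 from -0.29 to 0.68, Rny3 from -0.84 to 0.070, mt-Rnr1 from -0.54 to 0.46 and mt-Rnr2 from -0.53 to 0.35. The causes were not tested.

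Replicate numbers did not pair the mice, since correlations of same-numbered MG and GC deviations ran from -0.09 to 0.59 and 1 of 5 numbers correlated best with its own. With the replicate number as a block, 4 genes were lower, the mitochondrial median was 0.30 with 11 of 13 above 0, and the sign was opposite for mt-Nd2 (-0.41), mt-Nd6 (-0.077), Hbb-bs (0.074), Ubb (0.10), Fn1 (-0.014), Rpl13 (-0.046), Hist1h2bc (0.060), Hist2h2aa1 (0.64) and Gas5 (-0.12). The 95% interval lay within 1 log2 unit of 0 in 18 of 272 genes, and the parts of depth and of the spread between mice in this were not tested.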
